A study of Mus musculus with 6 samples.

Results

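The integrated stress response is followed here through 10 mouse genes, taken by name from the deposited expression table of 23398 genes: the transcription factors Atf4, Atf3 and Ddit3 (CHOP), the feedback regulators Ppp1r15a (GADD34) and Trib3, and the amino acid, cystine and redox genes Asns, Psat1, Slc7a11, Chac1 and Sesn2. All 10 symbols were found in the table, each once. The cells were dendritic cells grown from mouse bone marrow in serum-containing DMEM with penicillin and streptomycin, and the labels name no growth factor, strain, sex, age or particle dose. One group received vehicle (libraries 1 to 3) and the other calcium hydroxide (Ca(OH)2) nanoparticles (libraries 1 to 3), each for 12 hours, and the design asks how the messenger RNA profile differs between them. Nothing in the labels says that the 3 libraries of a group came from separate cultures or animals, so p-values measure the spread between these libraries, which may be technical.

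In the integrated stress response, kinases that sense different stresses (PERK for the endoplasmic reticulum, GCN2 for uncharged tRNA, PKR for double-stranded RNA and HRI for heme and mitochondrial stress) phosphorylate the translation initiation factor eIF2. General translation falls, while the messenger RNA of Atf4 is translated better because of short open reading frames ahead of its coding region, so that ATF4 protein can rise without a change in its transcript. ATF4 then pairs with other basic leucine zipper proteins, among them C/EBP factors, and activates genes for amino acid synthesis and import, aminoacyl-tRNA synthesis and glutathione supply, and in myeloid cells several of its targets also answer to inflammatory signals.

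The site that ATF4 and C/EBP factors bind as a pair, the C/EBP-ATF response element, was looked for in the 250 bases before each RefSeq start site (GRCm38.p6) as the letters TGATGNAA on either strand (TTNCATCA read on the gene's strand). Of 32851 such windows of all genes, 1134 (3.45%) held it. Of the 11 windows of the 10 genes (Psat1 has a pair of start sites), 4 held it, those of Asns, Slc7a11, Atf3 and Chac1. The stretches around these matches are shown because these 4 genes share the letters and include 3 of the 7 that rose. Each is read 5′ to 3′ on the gene's strand, with the match in capitals. The last stretch is that of Ppp1r15a, the gene with the largest change of the 10, where the capitals mark a cyclic AMP response element, TGACGTCA, which 1.55% of all windows hold.
Asns: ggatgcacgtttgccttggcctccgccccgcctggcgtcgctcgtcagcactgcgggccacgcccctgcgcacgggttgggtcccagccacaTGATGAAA
Slc7a11: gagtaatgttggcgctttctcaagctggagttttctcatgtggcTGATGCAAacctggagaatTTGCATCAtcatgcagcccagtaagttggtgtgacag
Atf3: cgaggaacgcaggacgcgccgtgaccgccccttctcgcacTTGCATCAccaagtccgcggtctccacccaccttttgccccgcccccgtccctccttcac
Chac1: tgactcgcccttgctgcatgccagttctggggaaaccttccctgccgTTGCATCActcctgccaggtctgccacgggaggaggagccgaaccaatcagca
Ppp1r15a: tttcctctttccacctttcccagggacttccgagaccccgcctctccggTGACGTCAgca

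These stretches lie at chr6:7693225-7693324 (minus strand, Asns), chr3:50443624-50443723 (minus, Slc7a11), chr1:191183384-191183483 (minus, Atf3), chr2:119351002-119351101 (plus, Chac1) and chr7:45526270-45526329 (minus, Ppp1r15a). Slc7a11 holds a pair of matches in opposite orientation, from 66 to 59 and from 47 to 40 bases before its start. The match of Asns lies 23 to 16 bases before the RefSeq start, and the GENCODE M21 start of Asns is 45 bases farther upstream, so that in that annotation the match falls within the first exon. For Atf3 the annotations differ more: the longest GENCODE model starts 34706 bases upstream of the RefSeq start used here. Of the other motifs searched, the AP-1 letters TGANTCA (6.75% of all windows) were found in Ddit3, TATAAA or its reverse complement (12.4%) in Trib3, and the CCAAT box or its reverse complement (33.8%) in 6 of the 10 genes, Chac1, Slc7a11, Sesn2, Ddit3, Atf4 and Psat1. These matches describe the letters of the windows and show no binding.

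Expression was analysed in FPKM, fragments per kilobase of transcript scaled for the size of the library, a unit inferred from the values. Whole reads could be recovered from them, 17284870 to 21979855 per library, and the 9 genes that passed the filter described below rested on 56 to 19355 reads per library. Nanoparticle library 1 stood apart: over 10682 genes its log2(FPKM + 1) values correlated with those of nanoparticle libraries 2 and 3 at 0.942 and 0.928, against 0.990 between the latter, and results are therefore given with and without it. Its recovered reads (17792935) and its share of mitochondrial reads (2.53%) lay within the ranges of the other libraries (2.21% to 2.55% for the share). Its number of genes above 0 (18722) was the highest of the 6 libraries, against 17105 and 16349 in nanoparticle libraries 2 and 3 and 18207 to 18325 in vehicle. The dendritic cell markers Itgax, Irf4, Irf8 and Zbtb46 passed the filter and Flt3 was under 1 FPKM in every library. The dendritic cell list summed to 515 to 519 FPKM in vehicle and 427 to 582 FPKM in nanoparticle libraries, with 2 of 8 tested genes higher and 4 lower. The macrophage list of 10 genes went in sum from 749 to 801 FPKM to 1336 to 1814 FPKM, with 4 of 10 tested genes higher and 3 lower. The neutrophil list summed to 276 to 309 FPKM and 246 to 344 FPKM, with 3 of 6 tested genes higher, 1 lower, and Elane, Mpo and Retnlg at 0 in all vehicle libraries. In the same list Mmp8 fell from 245 to 130.0 FPKM on average, S100a8 rose from 34.9 to 83.1 FPKM, Lcn2 from 0.234 to 50.4 FPKM and Csf3r from 0.586 to 4.21 FPKM. The mast cell and basophil list went from 3.93 to 6.16 FPKM to 10.3 to 26.1 FPKM, with 1 of 4 tested genes higher and 1 lower. The higher gene was Hdc, from 0.338 to 12.5 FPKM on average, and the lower was Gata2, from 2.88 to 1.31 FPKM. Kit and Cpa3 did not pass, and Prss34, Tpsb2, Mcpt8 and Ms4a2 were under 1 FPKM in every library. All matched genes of the B cell (5 genes), T and NK cell (7 genes) and erythroid (4 genes) lists were under 1 FPKM in every library. Beside these marker counts, 17.0% of all tested genes were higher and 16.2% lower in the test described below. The part of these cell markers in the results below was not tested, and in bulk RNA fewer cells of a type and less RNA per cell cannot be told apart.

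Of the 10 genes, 7 rose with nanoparticles (Ppp1r15a, Ddit3, Trib3, Slc7a11, Asns, Atf3 and Atf4), Sesn2 and Psat1 fell, and Chac1 was too low to be tested. The test was limma's moderated test on log2(FPKM + 1) over the 10682 genes that reached 1 FPKM in 3 or more libraries, with a Benjamini-Hochberg adjusted p under 0.05 as the threshold. All 9 tested genes passed it, where 33.2% of all tested genes did. By direction, 7 of 9 were higher, against 17.0% of all tested genes, and 2 were lower, against 16.2%. In all 9 genes no nanoparticle library overlapped a vehicle library, as in 52.1% of all tested genes. The median log2 change of the 9 was 1.00 and that of all tested genes -0.0010, and without nanoparticle library 1 these medians were 0.91 and 0.02. The sizes of the 9 changes, direction aside, ranged from the 67.9th percentile of all tested genes (Psat1) to the 96.9th (Ppp1r15a).

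**Figure D1:**
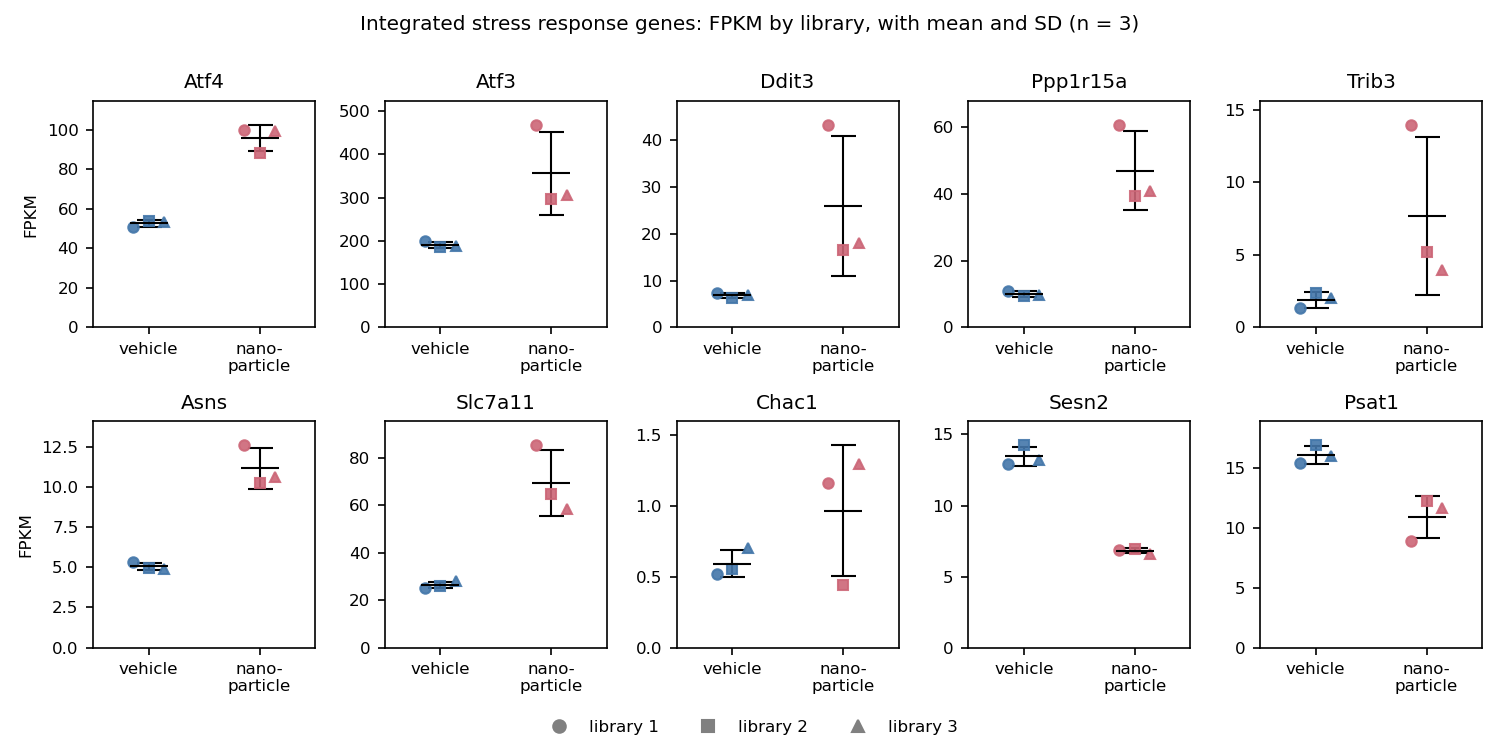
FPKM (vertical axis, from 0) of the 10 genes in the 3 vehicle and 3 nanoparticle libraries, 1 panel per gene, with symbols for the library number and bars for the mean and SD (n = 3). The groups are separate in every panel except Chac1, and nanoparticle library 1 (circle) is the highest library in each of the 7 genes that rose.

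Atf4 (ENSMUSG00000042406, chromosome 15, 80255184 to 80257541, plus strand) encodes the central transcription factor of the response. It was at 50.5, 53.8 and 53.5 FPKM in vehicle libraries 1 to 3 and at 99.9, 88.4 and 99.1 FPKM in nanoparticle libraries 1 to 3. The libraries of each group lay close together and far from those of the other group. The mean rose 1.82-fold, or from 52.6 ± 1.81 to 95.8 ± 6.42 FPKM (mean ± SD of n = 3 each), and the fitted log2 change was 0.85 (limma adjusted p = 0.0017, SE 0.11), or 0.82 with nanoparticle library 1 left out. The call was lost under quantile normalization (log2 change 0.43, limma adjusted p = 0.061).

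Atf3 (ENSMUSG00000026628, chromosome 1, 191170296 to 191218039, minus strand) encodes a basic leucine zipper factor that is induced by ATF4 and by many other stimuli and is known as a repressor of inflammatory genes in macrophages. It was the most abundant of the 10 transcripts per length, at 199, 185 and 189 FPKM in vehicle and 468, 296 and 305 FPKM with nanoparticles. Nanoparticle library 1 was well above the other nanoparticle libraries, which in turn lay above every vehicle library. The log2 change was 0.87 (limma adjusted p = 0.019, SE 0.20) for a 1.87-fold rise of the mean, and 0.65 without nanoparticle library 1. This call depended on the scaling: it was lost with libraries scaled by recovered read totals (log2 change 0.52, limma adjusted p = 0.087), with equal sums of FPKM (0.40, adjusted p = 0.23) and under quantile normalization (0.22, adjusted p = 0.50). It was also lost without vehicle library 1, 2 or 3 (limma adjusted p = 0.067, 0.081 and 0.078), with log2 changes of 0.84 to 0.90.

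Ddit3 (ENSMUSG00000025408, chromosome 10, 127290774 to 127296288, plus strand) encodes CHOP, a C/EBP family factor that is switched on late in the response and is linked to cell death under prolonged stress. It was at 7.44, 6.30 and 6.82 FPKM in vehicle and at 43.3, 16.7 and 18.1 FPKM with nanoparticles. All nanoparticle libraries were higher, and library 1 stood at 2.49 times the mean of libraries 2 and 3. The log2 change was 1.65 (limma adjusted p = 0.013, SE 0.35), and 1.23 without nanoparticle library 1, that is, a mean ratio of 3.79 with it and 2.53 without it. The call was lost without vehicle library 2 or 3 (limma adjusted p = 0.055 and 0.052). In GENCODE M21 the exons of Ddit3 (1713 bases merged) share 68 bases with those of Mars on the opposite strand and 13 with Gm4189, and the strand setting of the counting is not given in the sources used here. Mars did not exceed 10.4 FPKM in any library.

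Ppp1r15a (ENSMUSG00000040435, chromosome 7, 45522916 to 45526268, minus strand) encodes GADD34, the stress-induced partner that directs protein phosphatase 1 to phosphorylated eIF2 and so ends the translational block. It showed the largest change of the 10 genes, from 10.95, 9.34 and 9.78 FPKM in vehicle to 60.6, 39.5 and 40.9 FPKM with nanoparticles. Every nanoparticle library was far above every vehicle library, with library 1 the highest. The mean rose 4.69-fold, a log2 change of 2.10 (limma adjusted p = 4.9e-04, SE 0.18), and 4.01-fold without nanoparticle library 1. Its exons share 12 bases with those of Tulp2 on the opposite strand, which did not exceed 0.115 FPKM in any library.

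Trib3 (ENSMUSG00000032715, chromosome 2, 152337422 to 152344032, minus strand) encodes a pseudokinase that is induced by ATF4 and CHOP and restrains ATF4 activity and AKT signalling. It was at 1.32, 2.40 and 2.01 FPKM in vehicle (56, 101 and 89 reads) and at 13.9, 5.204 and 3.96 FPKM with nanoparticles (484, 183 and 162 reads). Library 1 was 3.05 times the mean of nanoparticle libraries 2 and 3, the widest such gap among the 10 genes, while the groups still did not overlap. The log2 change was 1.43 (limma adjusted p = 0.041, SE 0.42), and 0.95 without library 1 (adjusted p = 0.0039). It was the least stable call of the 9 tested genes: of 16 alternative settings that could test it, 9 did not pass, among them those without vehicle library 1, 2 or 3 (0.14, 0.088 and 0.11) and without nanoparticle library 2 (0.072), with adjusted p over the 16 from 0.0012 to 0.14 and log2 changes from 0.95 to 1.80.

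Among the amino acid genes the directions split. Asns (ENSMUSG00000029752, chromosome 6, 7675169 to 7693254, minus strand), which makes asparagine and is a classical ATF4 target, was at 5.32, 4.98 and 4.90 FPKM in vehicle and 12.6, 10.2 and 10.6 FPKM with nanoparticles. The spread within each group was small beside the gap between them. The mean rose 2.20-fold, a log2 change of 1.00 (limma adjusted p = 0.0011, SE 0.11), which was 0.91 without nanoparticle library 1. Psat1 (ENSMUSG00000024640, chromosome 19, 15904678 to 15947337, minus strand), the aminotransferase of serine synthesis and also an ATF4 target in many cells, went the other way. It was at 15.4, 16.9 and 16.1 FPKM in vehicle and 8.93, 12.2 and 11.7 FPKM with nanoparticles, lowest in library 1. Its mean was 1.48-fold lower, a log2 change of -0.53 (limma adjusted p = 0.026, SE 0.14), and 1.35-fold lower without nanoparticle library 1. Its call was lost without vehicle library 1, 2 or 3 (limma adjusted p = 0.079, 0.11 and 0.095).

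Slc7a11 (ENSMUSG00000027737, chromosome 3, 49892526 to 50443614, minus strand) encodes xCT, the cystine-glutamate exchanger that supplies cysteine for glutathione and is a target of both ATF4 and NRF2. It was at 25.2, 26.1 and 27.9 FPKM in vehicle and at 85.1, 64.6 and 58.4 FPKM with nanoparticles. The lowest nanoparticle library was above the highest vehicle library by more than the spread within either group. The mean rose 2.63-fold, a log2 change of 1.35 (limma adjusted p = 0.0014, SE 0.16), and 2.33-fold without nanoparticle library 1.

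Chac1 (ENSMUSG00000027313, chromosome 2, 119351229 to 119354381, plus strand) encodes a glutathione-degrading enzyme and is often among the strongest ATF4 targets. It was at 0.521, 0.555 and 0.702 FPKM in vehicle (17, 18 and 24 reads) and at 1.16, 0.443 and 1.30 FPKM with nanoparticles (31, 12 and 41 reads). Nanoparticle library 2 was the lowest of all 6 libraries, and the groups overlapped. As only 2 libraries reached 1 FPKM, Chac1 did not enter the test. With no filter on low values its log2 change was 0.28 with a 95% interval of -0.22 to 0.77 (limma adjusted p = 0.48).

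Sesn2 (ENSMUSG00000028893, chromosome 4, 132492032 to 132510501, minus strand) encodes a sestrin that senses leucine, holds back the growth kinase complex mTORC1 and is described as a target of ATF4, NRF2 and p53. It was at 12.9, 14.2 and 13.2 FPKM in vehicle and at 6.87, 6.94 and 6.62 FPKM with nanoparticles. The nanoparticle libraries, library 1 included, had an SD of only 0.171 FPKM (n = 3), and the groups did not overlap. The mean was 1.98-fold lower, a log2 change of -0.89 (limma adjusted p = 8.0e-04, SE 0.089), and -0.89 again without nanoparticle library 1. Sesn1, a p53-regulated relative, was also lower (log2 change -1.45, limma adjusted p = 6.1e-04), and Sesn3 did not pass the filter.

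By level, the 10 transcripts kept separate places in vehicle, from Atf3 (191 FPKM on average) through Atf4 (52.6), Slc7a11 (26.4), Psat1 (16.1), Sesn2 (13.5), Ppp1r15a (10.03), Ddit3 (6.86), Asns (5.07) and Trib3 (1.91) to Chac1 (0.593), with no overlap between neighbours in that order. With nanoparticles Ppp1r15a and Ddit3 moved above Psat1 and Sesn2, and Asns moved above Sesn2. By mean alone, Asns (11.2 FPKM) also passed Psat1 (10.9 FPKM), and Trib3 (7.70 FPKM) passed Sesn2 (6.81 FPKM). Several neighbours then overlapped: Slc7a11 with Ppp1r15a, Ppp1r15a with Ddit3, Asns with Psat1, and Trib3 with Asns, Psat1 and Sesn2.

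Nanoparticle library 1 was the highest of the 6 libraries in all 7 genes that rose. Of all genes called higher, it was the highest nanoparticle library in 54.9%, and it was the lowest in 51.0% of genes called lower. Its value was over 1.5 times the mean of nanoparticle libraries 2 and 3 in 4 of the 9 tested genes (Trib3, Ddit3, Atf3 and Ppp1r15a) and in 18.9% of all tested genes. The summed level of hypoxia targets was 619 to 621 FPKM in vehicle, 1509 FPKM in library 1 of the nanoparticle group and 852 and 892 FPKM in its libraries 2 and 3. Ldha (561 FPKM) and Pgk1 (484 FPKM) were the largest parts of the sum in nanoparticle library 1. Of 14 tested hypoxia targets, 11 were highest in that library, a count for which no share over all tested genes was worked out. Ddit4 (REDD1), an mTORC1 inhibitor induced by both hypoxia and ATF4, was at 2.09, 2.18 and 1.64 FPKM in vehicle and at 8.41, 1.93 and 1.77 FPKM with nanoparticles. It did not pass (log2 change 0.52, 95% interval -0.61 to 1.65), and its log2 change without library 1 was -0.055. The part of hypoxia targets in the levels of the 10 genes was not tested. All 9 tested genes passed without library 1, in a fit that called 64.8% of all tested genes (34.3% higher and 30.5% lower), so that counts without this library are to be read against these shares.

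**Figure D2:**
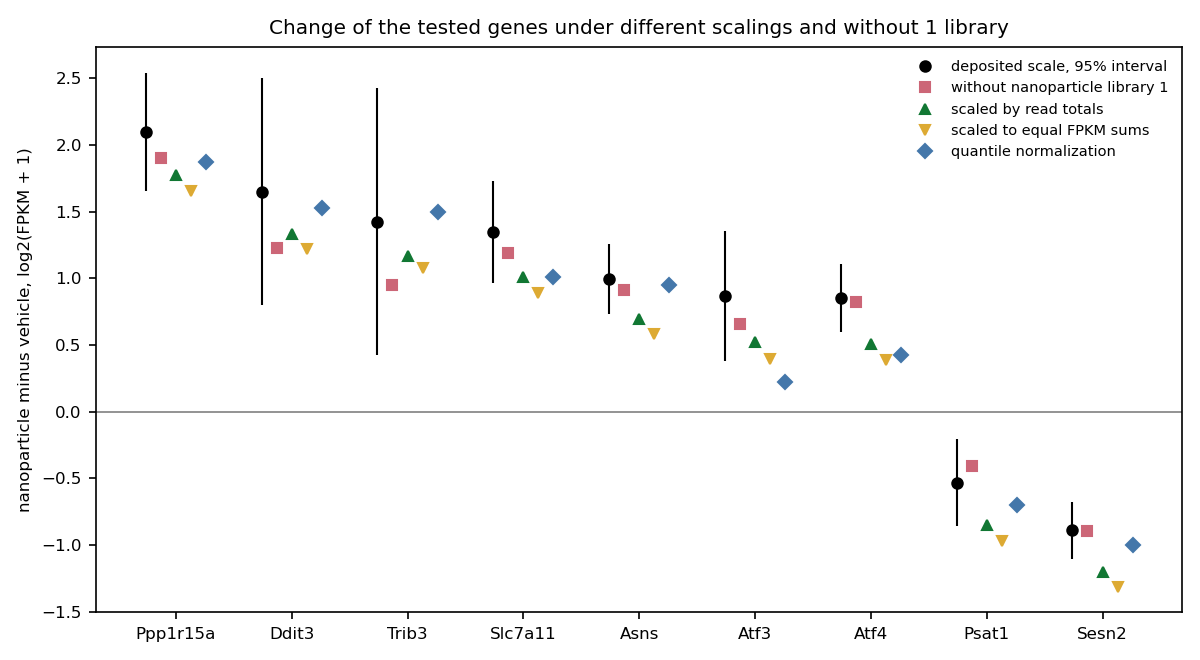
Log2 change (vertical axis, nanoparticle minus vehicle on the log2(FPKM + 1) scale) of the 9 tested genes on the deposited scale with its 95% interval, without nanoparticle library 1, and under 3 other scalings. The signs hold in each, Trib3 and Ddit3 move most without library 1 (to 0.95 and 1.23), and Atf3 is lowest under quantile normalization (0.22).

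The direction of all 9 tested genes held in every alternative, and the sizes shifted with the scaling between libraries. The median over all tested genes was -0.28 when scaled by recovered read totals and -0.38 with equal sums of FPKM, both as log2 changes. On these scales Psat1 (-0.85 and -0.97) and Sesn2 (-1.20 and -1.31) were lower still, and Atf4 (0.51 and 0.39) and Asns (0.69 and 0.58) were less high but passed.

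Ratios of FPKM within a library do not depend on the scaling between libraries. The ratios of 4 pairs were compared with an exact two-sided permutation test over the 6 libraries, which cannot give a p below 0.1, so no pair can reach 0.05. Asns relative to Psat1 went from 0.315 ± 0.0266 to 1.05 ± 0.312 (exact permutation p = 0.1, Benjamini-Hochberg adjusted p = 0.13 over the 4 pairs, SD over n = 3 each). Ppp1r15a relative to Ppp1r15b, the constitutive eIF2 phosphatase subunit CReP, went from 0.497 ± 0.0319 to 1.5 ± 0.200 (exact permutation p = 0.1, adjusted p = 0.13, SD over n = 3 each). Ddit3 relative to Atf4 went from 0.131 ± 0.0153 to 0.268 ± 0.143 (exact permutation p = 0.1, adjusted p = 0.13, SD over n = 3 each), with 0.433 in nanoparticle library 1 and 0.188 and 0.182 in libraries 2 and 3. In these 3 pairs the groups were fully separated. Slc7a11 relative to Slc3a2, the heavy chain that it pairs with, was 0.330 ± 0.0225 in vehicle and 0.266 ± 0.0689 with nanoparticles (exact permutation p = 0.3, adjusted p = 0.3, SD over n = 3 each), with overlapping groups. Slc3a2 rose with Slc7a11, from 80.0, 81.5 and 78.3 FPKM to 247, 271 and 272 FPKM (log2 change 1.71, SE 0.11, limma adjusted p = 1.6e-04).

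**Figure D3:**
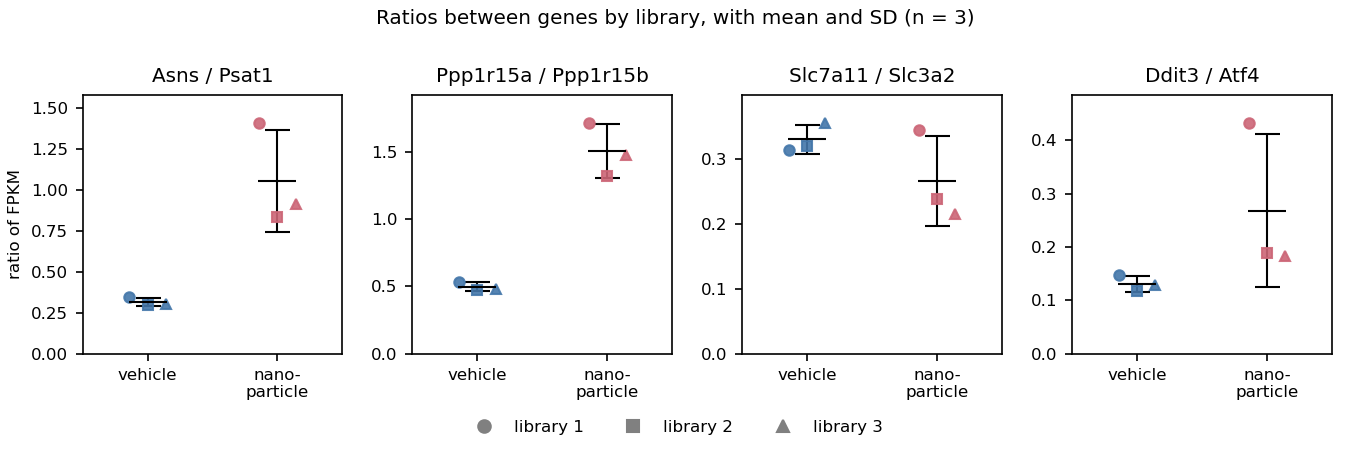
Ratio of FPKM (vertical axis, from 0) of 4 pairs of genes in each vehicle and nanoparticle library, with symbols for the library number and bars for the mean and SD (n = 3). The first, second and last pair separate the groups, while Slc7a11 over Slc3a2 overlaps between 0.314 and 0.356 in vehicle and 0.215 and 0.344 with nanoparticles.

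The kinases that start the response went in different directions. Of 10 tested genes of the eIF2 kinases, the phosphatase and its partners, 4 were higher and 3 lower. The shares over all tested genes were 17.0% higher and 16.2% lower. Eif2ak2 (PKR, an interferon-inducible sensor of double-stranded RNA) rose from 9.36, 8.86 and 8.32 FPKM to 30.2, 18.4 and 18.8 FPKM (log2 change 1.22, SE 0.20, limma adjusted p = 0.0048). Eif2ak3 (PERK) fell from 4.66, 3.74 and 4.63 FPKM to 2.14, 1.99 and 1.99 FPKM (log2 change -0.81, SE 0.11, limma adjusted p = 0.0023). Eif2ak4 (GCN2) was at 4.35, 4.09 and 4.08 FPKM in vehicle and at 4.72, 2.52 and 2.67 FPKM with nanoparticles and did not pass (log2 change -0.30, 95% interval -0.78 to 0.18, limma adjusted p = 0.29). Without nanoparticle library 1 it passed as lower (log2 change -0.52, limma adjusted p = 0.0011). Eif2ak1 (HRI) did not pass (0.11, interval -0.24 to 0.47), with a sign that turned without library 1 (-0.03) and with scaling by read totals (-0.19). On the side of the phosphatase, Ppp1r15b (0.59), the catalytic subunit Ppp1cb (0.57) and the adaptor Nck1 (0.84) rose, and Dnajc3, an inhibitor of PERK and PKR and a chaperone, fell (-0.59), all as log2 changes. Of the other catalytic subunits, Ppp1cc fell (log2 change -0.51, limma adjusted p = 0.017) and Ppp1ca, the most abundant of them, did not pass (0.013). The calls of Ppp1r15b and Ppp1cb were lost with scaling by read totals (0.26 and 0.25) and with equal sums of FPKM (0.14 and 0.13). Ppp1r15b was also lost without vehicle library 2 (0.57) or 3 (0.59), and Dnajc3 without vehicle library 1 or 3 (both -0.56).

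Of 10 tested genes for subunits of eIF2 and of its exchange factor eIF2B and for the related factors Eif5 (which activates the GTPase step of eIF2) and Eif2a (a separate initiation factor), 2 rose (Eif2b2 by a log2 change of 0.74, Eif2s2 by 0.42), Eif2s3x fell (-0.51) and 7 did not pass, with a median of 0.05. Eif2s2 was lost with scaling by read totals (0.10), its sign turned with equal sums of FPKM (-0.017), and it was lost without nanoparticle library 2 (0.40) or 3 (0.38) or any 1 vehicle library (0.41 to 0.46). Eif2s3x was lost without vehicle library 3 (-0.47). Among 14 tested other basic leucine zipper factors, 5 rose and 1 fell (median 0.24), against 7 and 3 without nanoparticle library 1. For this list and the eIF2 list, the shares over all tested genes were 17.0% higher and 16.2% lower. Without nanoparticle library 1 these shares were 34.3% and 30.5%. Cebpb, the C/EBP factor of inflamed myeloid cells, rose from 145, 187 and 153 FPKM to 369, 557 and 428 FPKM (log2 change 1.46, SE 0.20, limma adjusted p = 0.0024). Batf2 (2.07), Batf (0.88) and Nfe2l2, which encodes NRF2 (0.57), rose as well. The call of Nfe2l2 was lost with scaling by read totals (0.23), equal sums of FPKM (0.10) and quantile normalization (0.07), and without nanoparticle library 2 (0.51) or 3 (0.50) or any 1 vehicle library (0.54 to 0.61). Cebpg, the partner of ATF4 at amino acid response genes, did not pass (log2 change 0.12, 95% interval -0.11 to 0.35), nor did Atf5, itself an ATF4 target (0.22, interval -0.03 to 0.47). The signs of Cebpg and Atf5 turned with scaling by read totals (-0.19 and -0.10), and with equal sums of FPKM Cebpg passed as lower (-0.30, limma adjusted p = 0.043).

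Other genes of amino acid supply went in both directions. Of all tested genes 17.0% were higher and 16.2% lower, or 34.3% and 30.5% without nanoparticle library 1. Of 19 tested aminoacyl-tRNA synthetases, which charge tRNA and are commonly listed as ATF4 targets, 4 rose and 2 fell (median log2 change 0.06), against 8 and 5 without nanoparticle library 1 (median 0.0034). Wars (0.86) and Rars (0.69) were among those that rose, though neither passed with equal sums of FPKM (0.42 and 0.23), and Iars (-0.88) among those that fell. In serine and one-carbon synthesis, with some enzymes of other amino acids, 1 of 10 tested genes rose and 4 fell (median -0.19), against 2 and 5 without nanoparticle library 1 (median -0.30). Mthfd2, the mitochondrial folate enzyme, rose from 13.1, 13.1 and 13.9 FPKM to 21.1, 25.9 and 28.2 FPKM (log2 change 0.85, SE 0.13, limma adjusted p = 0.0036). Shmt2, which acts just before it in mitochondria, fell from 8.54, 10.1 and 9.43 FPKM to 4.53, 6.14 and 5.99 FPKM (log2 change -0.67, SE 0.13, limma adjusted p = 0.011). The call of Shmt2 was lost without vehicle library 2 (-0.62) or 3 (-0.66). Mthfd1 (-0.97) and Aldh18a1, of proline synthesis (-0.84), fell too. Of the enzymes on either side of Psat1, neither Phgdh (log2 change 0.43, 95% interval -0.06 to 0.93) nor Psph (0.11, interval -0.19 to 0.42) passed, though Phgdh did without nanoparticle library 1 (0.54), and the sign of Psph turned with scaling by read totals (-0.10).

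Of 12 tested genes, 11 amino acid transporters and the tRNA export receptor Xpot, 3 rose and 3 fell (median -0.27), and 3 and 7 did so without nanoparticle library 1. The shares over all tested genes were 17.0% higher and 16.2% lower, or 34.3% and 30.5% without that library. Xpot did not pass (-0.32). Besides Slc3a2, the arginine transporter Slc7a2 rose from 22.7, 26.3 and 26.6 FPKM to 544, 251 and 213 FPKM (log2 change 3.56, SE 0.35, limma adjusted p = 7.3e-04). Slc38a1, a glutamine transporter, fell (-0.90). Slc7a5, the leucine transporter that also pairs with Slc3a2, was at 10.7, 13.3 and 14.4 FPKM in vehicle and 3.37, 7.94 and 9.38 FPKM with nanoparticles and did not pass (log2 change -0.89, 95% interval -1.69 to -0.09, limma adjusted p = 0.086). It passed without nanoparticle library 1 (-0.51), with scaling by read totals (-1.20) and with equal sums of FPKM (-1.31). The other stress-induced targets of ATF4 had 7 of 17 tested genes higher and 1 lower (median 0.55), and 7 higher and 5 lower without nanoparticle library 1 (median 0.0034). Sqstm1, an autophagy receptor (2.61), and Hmox1, heme oxygenase (1.66), led by adjusted p, and both also answer to NRF2.

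**Figure D4:**
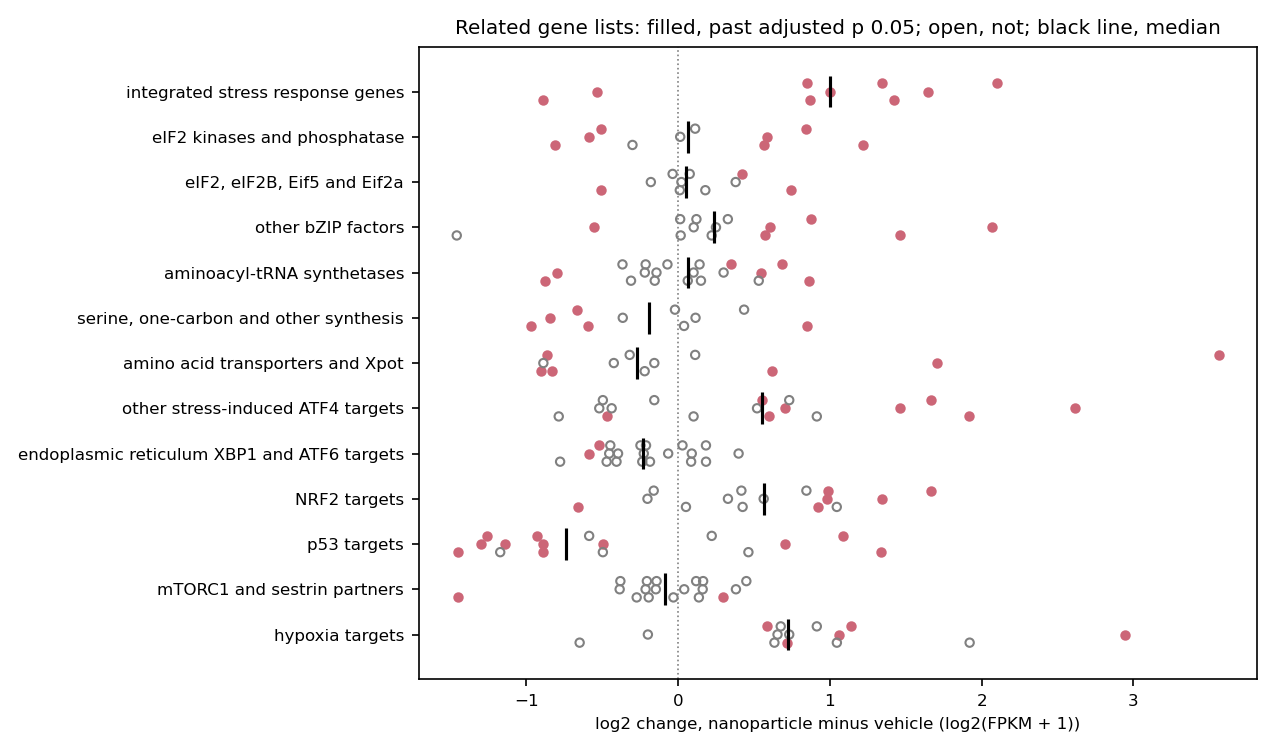
Log2 change (horizontal axis, nanoparticle minus vehicle on the log2(FPKM + 1) scale) of each tested gene of the 10 genes and of 12 related lists, filled where the limma adjusted p is under 0.05 and open where it is not, with a black line at the list's median. The 10 genes have their median at 1.00 and 9 of 9 filled points, where 33.2% of all tested genes passed. Among the related lists the filled share runs from 10% (targets of XBP1 and ATF6 in the endoplasmic reticulum) to 70% (eIF2 kinases and phosphatase).

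The chaperone arm of the endoplasmic reticulum stress response, which XBP1 and ATF6 drive, had 0 of 20 tested genes higher and 2 lower (median log2 change -0.23). The shares over all tested genes were 17.0% higher and 16.2% lower. At an adjusted p under 0.05 without nanoparticle library 1 the chaperone arm had 5 higher and 10 lower (median -0.15). That fit called 64.8% of all tested genes (34.3% higher and 30.5% lower). Hspa5 (BiP), its best-known target, was at 206, 197 and 198 FPKM in vehicle and 170, 240 and 236 FPKM with nanoparticles. It did not pass (log2 change 0.09, 95% interval -0.32 to 0.49), passed without nanoparticle library 1 (0.25, limma adjusted p = 0.0042), and had a negative sign with scaling by read totals (-0.26), equal sums of FPKM (-0.38) and quantile normalization (-0.46), passing as lower with the latter pair. Xbp1 did not pass (-0.25, interval -0.56 to 0.07), though it passed as lower with scaling by read totals (-0.59), equal sums (-0.71) and quantile normalization (-0.64), and Hyou1 (-0.52) and Dnajc3 fell, the call of Hyou1 being lost without any 1 vehicle library (-0.53 to -0.52). The test of whether these chaperone genes differ from the 10 genes as a group was not made.

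Of 15 tested NRF2 targets, 5 rose, Slc7a11 among them, and 1 fell (median 0.56). The counts of this and the following lists are to be read against 17.0% of all tested genes higher and 16.2% lower. Txnrd1, thioredoxin reductase, rose from 65.3, 65.7 and 64.9 FPKM to 129, 137 and 126 FPKM (log2 change 0.99, SE 0.10, limma adjusted p = 8.1e-04). Without nanoparticle library 1, 13 of the 15 were higher and 2 lower, where 34.3% of all tested genes were higher and 30.5% lower. Of 16 tested p53 targets, 3 rose and 8 fell, Sesn2 and Sesn1 among the latter (median -0.74), and without nanoparticle library 1 these counts were 4 and 10. Trp53inp1 fell most clearly by adjusted p (-1.26, limma adjusted p = 4.5e-04). Of 18 tested genes around mTORC1 and the sestrins, 1 rose, Wdr24 (0.29), and 1 fell, Sesn1 (median -0.09). Without nanoparticle library 1, 4 rose and 7 fell. The call of Wdr24 was lost with scaling by read totals (0.0055) and without nanoparticle library 2 (0.30) or 3 (0.31) or any 1 vehicle library (0.26 to 0.32), and its sign turned with equal sums of FPKM (-0.10). Of 14 tested hypoxia targets, 5 rose and 0 fell (median 0.72). Without nanoparticle library 1, 9 rose and 2, Vegfa (-0.32) and Pdk1 (-0.95), fell (median 0.43), both named after their values were seen. Of the 5, the smallest adjusted p values were those of Adm (2.94, from 1 to 2 reads per vehicle library), P4ha1 (1.06) and Higd1a (0.59), and the calls of P4ha1 (0.60) and Higd1a (0.15) were lost with equal sums of FPKM. Across the 12 related lists 61 of 165 tested genes passed (37.0%, 37 higher and 24 lower), a share near the 33.2% of all tested genes, and 123 (74.5%) passed without nanoparticle library 1, where 64.8% of all tested genes did.

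The tested genes whose pattern over the 6 libraries was nearest to that of Atf4, by the root mean square difference of centred log2(FPKM + 1), were Chpt1 (0.036), Adprh (0.044) and Gsap (0.051). Adprh, an ADP-ribosylarginine hydrolase, was at 27.2, 27.2 and 26.5 FPKM in vehicle and 52.5, 48.1 and 52.2 FPKM with nanoparticles, with the same dip in nanoparticle library 2 that Atf4 showed. Chpt1, of phosphatidylcholine synthesis, was at 1.85, 1.93 and 1.87 FPKM and 4.24, 3.88 and 4.16 FPKM. With 6 libraries in 2 groups, such likeness reflects mostly the difference between the groups.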

How the data were processed

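Groups and replicate numbers came from the sample titles. The authors deposited a pair of tables with identical values (140388 of 140388) for 23398 genes, which are FPKM as inferred from the values, since no header or label names the unit. Per the submitters' processing notes, STAR 2.5 and HTSeq were among the tools and mm10 among the builds, with no roles given. Multiplied by merged exon length (GENCODE M21 primary assembly, 23388 genes matched) and 1 scale per library, at least 99.0% of values above 0 came within 0.01 of a whole read, after another length had been found for 580 abundant genes. The library scales are not proportional to the read totals, so a scaling between libraries is already in the values. This scaling differed by group. Recovered reads divided by the library scale gave 0.872 to 0.888 for vehicle libraries but 1.09 to 1.14 for nanoparticle libraries. Beside a scaling by read totals, the deposited values are thus higher for nanoparticle libraries relative to vehicle. Which scaling is the right one was not tested.

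FPKM plus 1 was log2-transformed and fitted with limma 3.58.1 (lmFit, eBayes with trend, R 4.3.3) for genes that reached 1 FPKM in 3 or more libraries, with group as the single term. Adding 1 understates changes of low genes. Alternatives varied pseudocount, filter, scaling, variance model, replicate block and libraries. The fit was also run on simulated data, in which all libraries shared the same dispersion and none stood apart. That run does not show how the fit behaves on these libraries. Permutation tests used scipy 1.17.1. The 10 genes, the 12 related and 7 cell marker lists and the rule for named genes were chosen with earlier results of these data known. The rule took, from each related list, up to 3 genes past the threshold with separated groups, at least 5 FPKM and the smallest adjusted p, plus 19 fixed genes and the 3 nearest to Atf4. Of the aminoacyl-tRNA synthetase list 19 of 20 symbols were matched. Promoter windows are RefSeq's (GRCm38.p6). Near-identical gene copies and overlapping genes are uncertain, as the handling of shared reads is not given in the sources used here.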

Additional observations from a re-analysis of the deposited data

How the results depend on the processing

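The 9 tested genes kept their direction in all alternatives. Asns, Ppp1r15a, Sesn2 and Slc7a11 also stayed past the threshold in each of 17 alternatives, Atf4 in 16, Ddit3 in 15, Psat1 in 14, Atf3 in 11 and Trib3 in 7 of the 16 that could test it. The losses of Ddit3 (limma adjusted p 0.055 and 0.052) and Psat1 (0.079 to 0.11) came when a vehicle library was left out. The cause of these and of the other losses was not tested. With 1 library left out at a time, 5 to 9 of the 10 genes passed, 38 to 123 genes of the related lists, and 2141 to 6923 genes in all (1114 to 3660 higher, 1027 to 3263 lower). The highest counts were those without nanoparticle library 1. Weighting the libraries, which gave nanoparticle library 1 a weight of 0.0438, called 7237 genes (3773 higher, 3464 lower) and 122 of the related lists. Scaling by read totals called 1108 genes higher and 3613 lower in place of 1817 and 1733, and equal sums of FPKM 881 and 4307, by their shift of all genes. A minimum of 5 FPKM, which tests fewer genes, called 975 lower.

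Signs that turned, among the other named genes, were those of Eif2s2 (-0.017), Wdr24 (-0.10), Eif2ak1 (-0.29), Cebpg (-0.30), Atf5 (-0.22), Psph (-0.18) and Hspa5 (-0.38) with equal sums of FPKM, of Eif2ak1 (-0.19), Cebpg (-0.19), Atf5 (-0.10), Psph (-0.10) and Hspa5 (-0.26) with read totals, of Hspa5 with quantile normalization (-0.46) and without nanoparticle library 2 (-0.0017), of Eif2ak1 with library weights (-0.018) and without nanoparticle library 1 (-0.032), and of Ddit4 without nanoparticle library 1 (-0.055). Leaving out 1 library at a time gave log2 changes of -0.032 to 0.20 for Eif2ak1, -0.055 to 0.83 for Ddit4 and -0.0017 to 0.25 for Hspa5. Of 724 alternative values of the 43 other named genes, 641 kept their sign and call, 51 lost the call, 15 gained it and these 17 turned sign. The deviations from the group means correlated at 0.065, 0.113 and -0.058 between same-numbered libraries. Between libraries of different numbers these correlations ran from -0.129 to 0.108. With 3 libraries per group the deviations are not independent, so these values cannot show or exclude a pairing. With the replicate number as a block, 2785 genes passed, with 8 of the 10 genes (Trib3 at an adjusted p of 0.066 did not) and 46 of the related lists. Chac1, with 12 to 41 reads per library, could not be tested above the filter.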
